A study of Homo sapiens with 4 samples.

Results

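HLA class I molecules display fragments of a cell's own proteins at its surface. The 9 genes described here encode parts of that machinery, namely the class I heavy chains HLA-B, HLA-C, HLA-E and HLA-F, the light chain B2M, the peptide transporter subunits TAP1 and TAP2, and the immunoproteasome subunits PSMB8 and PSMB9. They were chosen by name, as the rows of the deposited table that carry these symbols on the main chromosomes, and all 9 were found among 23194 gene symbols. The FPKM values (sequenced fragments scaled to transcript length and to the mapped fragments of the library) of the transcripts of each gene were summed. RNA was measured in 4 libraries of LV-M100, a clonal subline with low cell-to-cell variability derived from the breast cancer line MDA-MB-231, 48 h after transfection of siRNAs with a lipid reagent. The control libraries received NC1 in replicate 1 and the BLOCK-iT Fluorescent Oligo in replicate 2. The depleted libraries received siSNRNP40 #1 in replicate 1 and siSNRNP40 #2 in replicate 2, both directed against SNRNP40, whose product belongs to the U5 particle of the spliceosome. All libraries thus come from 1 clone, and within a condition the 2 libraries differ in the siRNA they received.

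The depleting siRNAs are shown because they define the condition, each by the single strand that the labels give, in lower case throughout.
siSNRNP40 #1: ggaauagacaaugauauc
siSNRNP40 #2: ggauuugaccgacugaua
The table gives 1 pooled FPKM value per transcript and condition. From these values no error or replicate check can be computed, and no test between the conditions was made here. The test that the authors ran over the 2 libraries per condition was not used. Read depth is unknown because the table holds no counts, so differences are described by their size and by how common that size was among all genes. SNRNP40 itself had an FPKM of 40.4 with control siRNAs and 6.12 with SNRNP40 siRNAs, so that it decreased by 84.9%. Summed FPKM was nearly the same in both conditions (516056 and 517152), and the median log2 fold change of the 12334 genes with a mean FPKM of at least 1 was 0.0034.

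In a class I molecule, a heavy chain binds the peptide and pairs with beta-2-microglobulin, the product of B2M. HLA-B and HLA-C are highly polymorphic and present peptides to cytotoxic T cells, whereas HLA-E and HLA-F vary little and are ligands of natural killer cell receptors. Peptides are cut by the proteasome, in which PSMB8 and PSMB9 replace standard catalytic subunits, and are carried into the endoplasmic reticulum by the TAP1 and TAP2 heterodimer. Most cell types transcribe these genes at a basal level, and interferons raise them through elements in their promoters.

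The promoters are shown because 8 of the 9 genes lie in the major histocompatibility region and genes of this pathway are known to share control elements, a feature that played no part in their choice. Promoter windows of 250 bases before to 50 bases after the start site, taken from RefSeq on GRCh38.p14, were found for 8 of the 9 genes and not for HLA-E. In the windows below, read 5′ to 3′ along the gene, capitals mark matches on either strand to an interferon response element or to an NF-kB site. The interferon element was searched as GAAA, any 2 bases and GAAA, and in a shorter form as GAA, any 2 bases and GAAA. The NF-kB site was searched as GGG, any 2 bases, TT, any 1 base and CC. The 3 heavy chain windows are set together to show their common layout, and B2M is the gene with the largest difference. TAP1 and PSMB9 are a divergent pair with start sites 488 bases apart, and the windows shown for them share only 13 bases. The interferon elements of TAP1, beginning 134 and 128 bases before its start site, lie between the 2 start sites but outside the PSMB9 window.
HLA-B, chr6:31357130-31357429, minus strand: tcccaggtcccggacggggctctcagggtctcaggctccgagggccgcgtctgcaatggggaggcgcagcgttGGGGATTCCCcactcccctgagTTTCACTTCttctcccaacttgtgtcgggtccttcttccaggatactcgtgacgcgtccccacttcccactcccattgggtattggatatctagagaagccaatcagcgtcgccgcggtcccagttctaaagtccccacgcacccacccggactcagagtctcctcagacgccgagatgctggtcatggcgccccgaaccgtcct
HLA-C, chr6:31272043-31272342, minus strand: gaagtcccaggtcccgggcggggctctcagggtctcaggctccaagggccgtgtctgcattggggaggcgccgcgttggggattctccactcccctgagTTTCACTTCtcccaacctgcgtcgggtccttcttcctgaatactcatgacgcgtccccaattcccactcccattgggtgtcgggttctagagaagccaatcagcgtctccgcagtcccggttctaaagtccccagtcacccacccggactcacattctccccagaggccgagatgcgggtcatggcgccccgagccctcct
HLA-F, chr6:29723184-29723483, plus strand: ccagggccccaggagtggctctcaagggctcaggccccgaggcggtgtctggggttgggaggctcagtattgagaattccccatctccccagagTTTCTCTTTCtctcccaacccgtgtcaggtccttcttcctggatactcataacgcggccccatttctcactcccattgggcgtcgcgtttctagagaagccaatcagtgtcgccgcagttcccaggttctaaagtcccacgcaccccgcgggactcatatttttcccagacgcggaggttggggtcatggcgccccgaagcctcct
B2M, chr15:44711267-44711566, plus strand: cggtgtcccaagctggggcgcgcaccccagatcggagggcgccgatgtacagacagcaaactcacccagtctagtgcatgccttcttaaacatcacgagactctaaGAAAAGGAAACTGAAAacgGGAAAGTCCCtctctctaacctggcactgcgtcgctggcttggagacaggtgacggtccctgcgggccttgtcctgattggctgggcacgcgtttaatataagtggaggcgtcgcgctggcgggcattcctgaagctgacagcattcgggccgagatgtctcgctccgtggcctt
TAP1, chr6:32853655-32853954, minus strand: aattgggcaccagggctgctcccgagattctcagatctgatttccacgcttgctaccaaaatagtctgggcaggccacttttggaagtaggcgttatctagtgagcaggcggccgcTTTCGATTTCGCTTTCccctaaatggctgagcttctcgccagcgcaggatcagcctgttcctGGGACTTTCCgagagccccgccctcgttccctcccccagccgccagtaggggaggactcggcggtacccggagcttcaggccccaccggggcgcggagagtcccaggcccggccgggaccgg
PSMB9, chr6:32853942-32854241, plus strand: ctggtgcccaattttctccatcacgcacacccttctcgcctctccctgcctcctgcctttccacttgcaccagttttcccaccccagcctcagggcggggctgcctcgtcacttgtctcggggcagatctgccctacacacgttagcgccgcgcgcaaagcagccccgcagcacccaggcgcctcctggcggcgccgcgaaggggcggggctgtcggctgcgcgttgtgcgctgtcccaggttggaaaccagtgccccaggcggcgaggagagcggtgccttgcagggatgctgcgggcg
An interferon response element of either form was matched in 7 of these 8 genes, PSMB9 having none within its window, against 10.6% of 35116 promoter windows. The first count is per gene and the second per window. Because the letters searched were chosen after the sequences were seen, these and the following shares describe the windows and test nothing. The longer form was found in B2M, HLA-F, PSMB8, TAP1 and TAP2 (3.57% of all windows) and the shorter form in HLA-B, HLA-C, PSMB8 and TAP2 (7.66%). In PSMB8 and TAP2 both forms were matched and overlapped. In HLA-B, HLA-C and HLA-F the element began 155, 151 and 156 bases before the start site, so the heavy chain promoters place it within a few bases of one another. The NF-kB letters were matched in B2M, HLA-B and TAP1 (5.68% of all windows), in HLA-B beginning 177 bases and in B2M 125 bases before the start. Searched in the same way, the cAMP response element core TGACG was found in 6 of the 8 genes (24.6% of all windows), the CCAAT box in 6 (34.6%) and the gamma-activated site TTCNNNGAA in 2, PSMB8 and TAP1 (7.66%). TAP1 and PSMB8 have 2 windows each, and a match in either was counted. A match describes letters in a window and was not tested as a binding site.

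All 9 genes had a higher FPKM on SNRNP40 depletion, and none by as much as 1.5-fold, although HLA-F was higher only through its minor transcripts. By role, the log2 fold change was 0.45 for the light chain, and its median was 0.28 for the heavy chains, 0.26 for the transporter and 0.10 for the immunoproteasome subunits. Among all 12334 genes, 50.5% were higher at any size, 3.77% were higher by at least 1.5-fold and 3.25% were lower by at least 1.5-fold. At a fold of 1.2, 4 of the 9 genes (B2M, HLA-B, TAP1 and HLA-E) were higher and 0 were lower, against 15.9% and 15.4% of all genes. Every member had a mean FPKM above 10, and among the 6394 genes above that level 47.2% were higher at any size, 9.4% were higher by 1.2-fold, 13.2% were lower by 1.2-fold, 1.27% were higher by 1.5-fold and 1.8% were lower by 1.5-fold. The median log2 fold change of the 9 genes was 0.25, against 0.0034 for all genes and -0.013 for those above an FPKM of 10. In order of control FPKM the genes were B2M, HLA-B, HLA-E, HLA-C, PSMB8, PSMB9, TAP2, TAP1 and HLA-F, and this order was the same on depletion except that TAP2 passed PSMB9. Because no spread between libraries is known, neighbours such as HLA-E and HLA-C or PSMB9 and TAP2 cannot be ordered with confidence.

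B2M had an FPKM of 1480 with control siRNAs and 2026 with SNRNP40 siRNAs, a log2 fold change of 0.45 or an increase of 36.8%. It was both the most abundant member and the one with the largest difference, in FPKM (545) as well as in fold. Of all genes kept, 93.5% had a log2 fold change at or below that of B2M. The B2M row covers 45003685 to 45010357 on chromosome 15 of hg19, and its canonical GENCODE transcript has 4 exons and 943 bases. B2M was the only member outside chromosome 6.

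Among the heavy chains, HLA-B was the most abundant of the 4 members, with an FPKM of 310.2 with control siRNAs and 388 with SNRNP40 siRNAs (log2 fold change 0.32). HLA-E, the ligand of the CD94-NKG2 receptors, had values of 139.6 and 172.7 (0.31). HLA-C, which is also a ligand of killer immunoglobulin-like receptors, had values of 137.8 and 162.4 (0.24). HLA-F was far lower, at 9.82 and 11.7 (0.25). Summed per gene, the fold changes of the 4 heavy chains lay within 0.24 to 0.32 on the log2 scale. Their FPKM spanned a ratio of 31.6 between HLA-B and HLA-F with control siRNAs. The value of HLA-F rested on its minor transcripts, since its main transcript had a log2 fold change of -0.019. Summed over these 4 genes, FPKM was 597.5 and 734.8, an increase of 23.0%. The FPKM of B2M was 2.48 times that sum with control siRNAs and 2.76 times with SNRNP40 siRNAs, so that light chain RNA was the more abundant in both conditions.

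**Figure D1:**
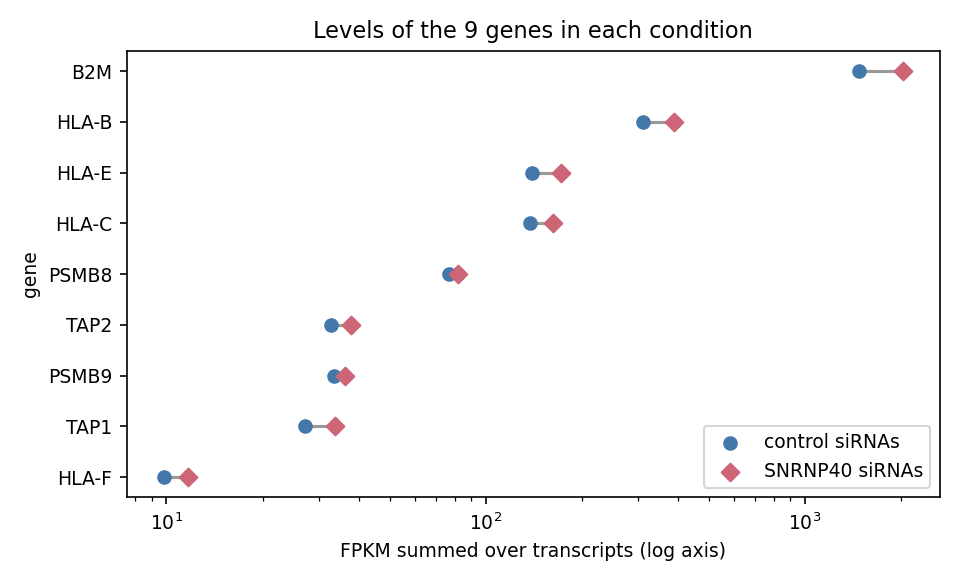
FPKM of the 9 genes, summed over transcripts, on a log axis, with control siRNAs (circles) and SNRNP40 siRNAs (diamonds), each point being the pooled value of 2 libraries with no error available. All 9 diamonds lie to the right of their circles, with B2M going from 1480 to 2026 and PSMB8 only from 76.9 to 82.0, and HLA-F being higher only through its minor transcripts.

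Heavy chain genes resemble one another, which bears on how fragments were assigned to them. The coding sequences of HLA-B and HLA-C in the reference were 91.5% identical, those of HLA-B and HLA-E 85.6%, and the pairs with HLA-F 66.9% to 69.6%. Identity was taken over all aligned columns, gaps included. The HLA-F coding sequence is longer, at 1326 bases against 1086 for HLA-B, and the gaps lower its percentages. In identical bases HLA-B shared nearly as many with HLA-F (925) as with HLA-E (931). Of all windows of 50 bases in the canonical transcript, 2.56% of HLA-B, 6.76% of HLA-C, 6.16% of HLA-E and 1.89% of HLA-F also occurred in a transcript of a gene elsewhere in the annotation, and 0 did for B2M, PSMB8 and PSMB9. The levels of HLA-B and HLA-C also depend on how closely the alleles of the line match the reference, which was not tested. The table lists a further 77 rows of the members on alternative haplotype contigs of chromosome 6, all at 0 in both conditions.

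The transporter subunits had similar levels. TAP1 had an FPKM of 27.1 with control siRNAs and 33.7 with SNRNP40 siRNAs (log2 fold change 0.31), and TAP2 had values of 32.8 and 37.8 (0.20). The ratio of TAP1 to TAP2 was 0.826 and 0.891, so the subunits were close to parity in RNA in both conditions. TAP2 is listed with 2 transcripts, and both were higher on depletion, at 13.5 and 15.2 for the one and 19.3 and 22.6 for the other. The share of TAP2 held by the more abundant transcript was 59.0% and 59.7%, which leaves the isoform balance nearly the same.

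The immunoproteasome subunits showed the smallest fold changes of the 9 genes. PSMB8 had an FPKM of 76.9 with control siRNAs and 82.0 with SNRNP40 siRNAs (log2 fold change 0.092), and PSMB9 had values of 33.5 and 36.2 (0.11). Of all genes kept, 64.1% had a log2 fold change at or below that of PSMB8 and 66.7% at or below that of PSMB9, so differences of this size in this direction were common. PSMB8, PSMB9 and PSMB10 take the places of the standard subunits PSMB5, PSMB6 and PSMB7 in the assembled particle. PSMB5 was higher by 0.32 on the log2 scale, with an FPKM of 147.1 and 183.0, whereas PSMB6 (0.089) and PSMB7 (0.087) differed little. The ratio of PSMB8 to PSMB5 was 0.523 with control siRNAs and 0.448 with SNRNP40 siRNAs. The ratio of PSMB9 to PSMB6 was 0.410 and 0.416, and that of PSMB10 to PSMB7 was 0.156 and 0.163. These ratios do not depend on the scaling between conditions, and none of the 3 ratios exceeded 1 in either condition.

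**Figure D2:**
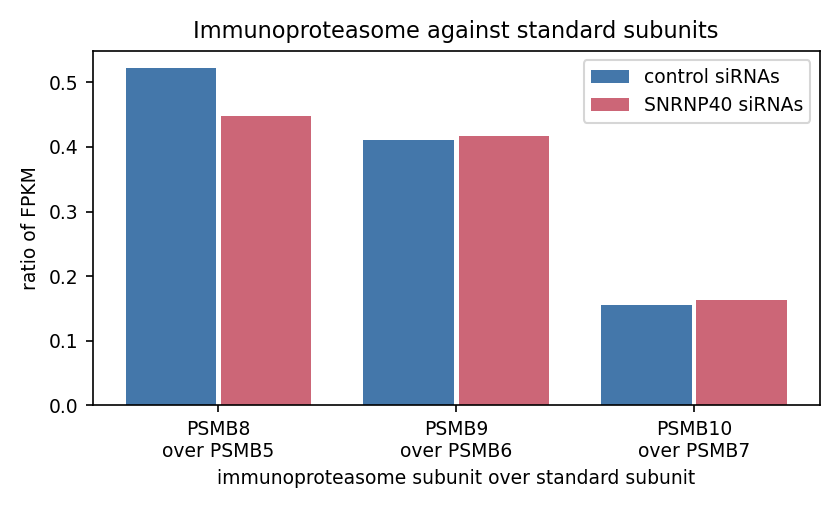
Ratio of the FPKM of each immunoproteasome subunit to that of the standard subunit it replaces, with control siRNAs and with SNRNP40 siRNAs, from 1 pooled value per condition. PSMB8 over PSMB5 goes from 0.523 to 0.448, and PSMB9 over PSMB6 from 0.410 to 0.416.

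At the level of single transcripts, HLA-F departed from the other members. Its most abundant listed transcript had an FPKM of 8.43 with control siRNAs and 8.32 with SNRNP40 siRNAs (log2 fold change -0.019), and held 85.9% and 71.3% of the gene's FPKM. The higher level of the gene therefore rested on its minor transcripts, at 0.859 and 2.47 for the one (1.53) and 0.529 and 0.880 for the other (0.73). In PSMB8 the minor transcript, at 1.27 and 2.72, had a log2 fold change of 1.10 but held only 1.65% and 3.32% of the gene. The main PSMB8 transcript had values of 75.6 and 79.3 (0.067). Cuffdiff divides fragments among overlapping transcripts by a model, and which annotated isoform each row stands for is not given in the table. The other 6 members are listed with a single transcript each.

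**Figure D3:**
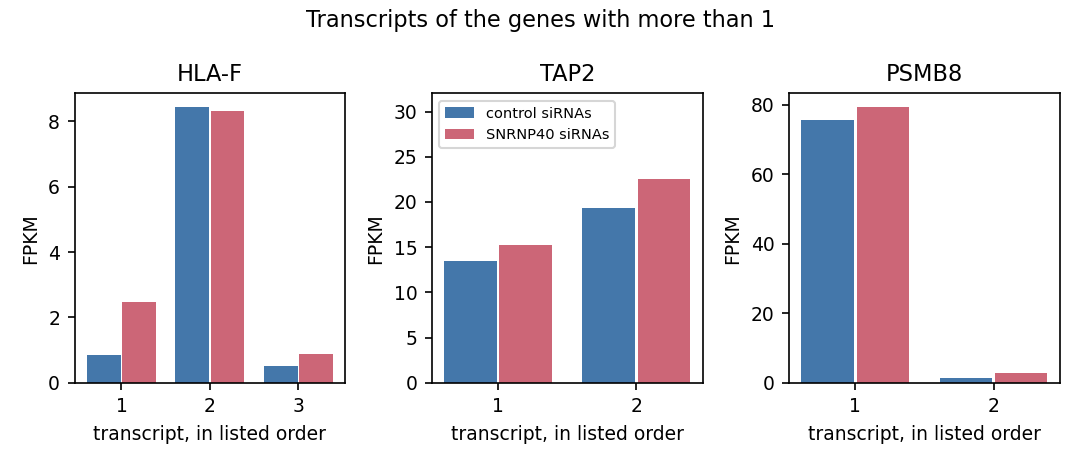
FPKM of each listed transcript of HLA-F, TAP2 and PSMB8, with control siRNAs and with SNRNP40 siRNAs, in the order of the table and with a separate axis per gene. The main HLA-F transcript goes from 8.43 to 8.32 while its minor transcripts are higher on SNRNP40 depletion, and both TAP2 transcripts are higher.

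PSMB8 and TAP1 share 1 locus in the table, 32808494 to 32821748 on chromosome 6 of hg19, together with LOC100507463, an antisense transcript that RefSeq names PSMB8-AS1. LOC100507463 was lower on depletion, with an FPKM of 8.49 and 5.46 (log2 fold change -0.64), the opposite direction to its neighbours. HLA-F overlaps HLA-F-AS1, which was below the filter at 0.828 and 1.07. Whether the authors counted by strand is not given in the sources used here, so reads of these genes and their antisense partners may not have been separated. The canonical transcripts of the members have between 4 exons (B2M) and 12 exons (TAP2), with 7 in HLA-F, 8 in each of HLA-B, HLA-C and HLA-E, 6 in each of PSMB8 and PSMB9 and 11 in TAP1.

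The other genes of antigen processing were examined from a list of 19, all of which passed the filter. Of these, 13 were higher at any size, 7 were higher by at least 1.2-fold, and only HLA-G was past 1.5-fold, with an FPKM of 1.60 and 2.49 (log2 fold change 0.63). Among all genes kept, 50.5% were higher at any size, 15.9% by at least 1.2-fold and 3.77% by at least 1.5-fold. The median of the list was 0.15, but it was 0.063 among its genes whose mean FPKM reached 5 and 0.033 among those that reached 10. The 5 further class I and class I-like genes of the list were all higher by at least 1.2-fold, among them MICA and MICB, ligands of the NKG2D receptor, at 0.28 and 0.33 on the log2 scale. TAPBP, which encodes tapasin, the bridge between the transporter and the heavy chain, went from an FPKM of 59.5 to 77.4 (0.38), and its homologue TAPBPL was higher by 0.49 from a control FPKM of 2.13. The general chaperones of the endoplasmic reticulum did not share this, CALR having a log2 fold change of -0.053, CANX -0.055 and PDIA3 0.093. UGGT1, the glucosyltransferase that returns incompletely folded glycoproteins to these chaperones, was the lowest of the list at -0.25. The peptide trimming enzymes were mixed, with ERAP1 at -0.15 and ERAP2 at 0.22. The genes other than HLA-G and UGGT1 are named here as examples after their values were seen.

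Of 22 genes that regulate class I transcription or carry the interferon and NF-kB signal, 15 were higher at any size. Their median log2 fold change was 0.085. Only RFXAP was past 1.5-fold, at a low FPKM of 1.32 and 1.99 (0.59). Among all genes kept, 50.5% were higher at any size and 3.77% by at least 1.5-fold. RFXAP encodes a subunit of the RFX complex that binds class I and class II promoters, and the other RFX subunits, RFX5 (-0.055) and RFXANK (0.11), differed little. NLRC5, the class I transactivator, had nearly the same FPKM in both conditions, 1.92 and 1.97, and IRF1 had 14.4 and 15.4. ATF1, a factor that binds the cAMP response element, was the lowest of the list (-0.55). IRF2 (0.54), JAK2 (0.45) and the receptor chains IFNGR1 (0.42), IFNAR2 (0.42) and IFNAR1 (0.37) were higher. All but RFXAP and ATF1 are named after their values were seen.

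Interferon-stimulated genes and class II genes were also higher, with larger median differences than the 9 genes. All 10 interferon-stimulated genes of the list were higher by at least 1.2-fold and 6 by at least 1.5-fold, with a median log2 fold change of 0.70. Over all genes kept, these shares were 15.9% and 3.77%. ISG15, a ubiquitin-like modifier, had an FPKM of 122.2 and 216.9 (0.83), and IFIH1, a sensor of double-stranded RNA, had 12.8 and 24.1 (0.91). IFIT1 (0.71), IFIT3 (0.74), IFI44 (0.70) and IFI6 (0.70) were also past 1.5-fold. Of the 10 class II genes 7 passed the filter, and all 7 were higher, against 50.5% of all genes kept, with a median of 0.47. CD74, the invariant chain of class II, had an FPKM of 72.6 and 111.9 (0.63), and HLA-DPA1 had 1.70 and 3.36 (0.98), whereas CIITA, the class II transactivator, had 1.45 and 1.49 (0.046). The part of these changes in the higher levels of the 9 genes was not tested.

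**Figure D4:**
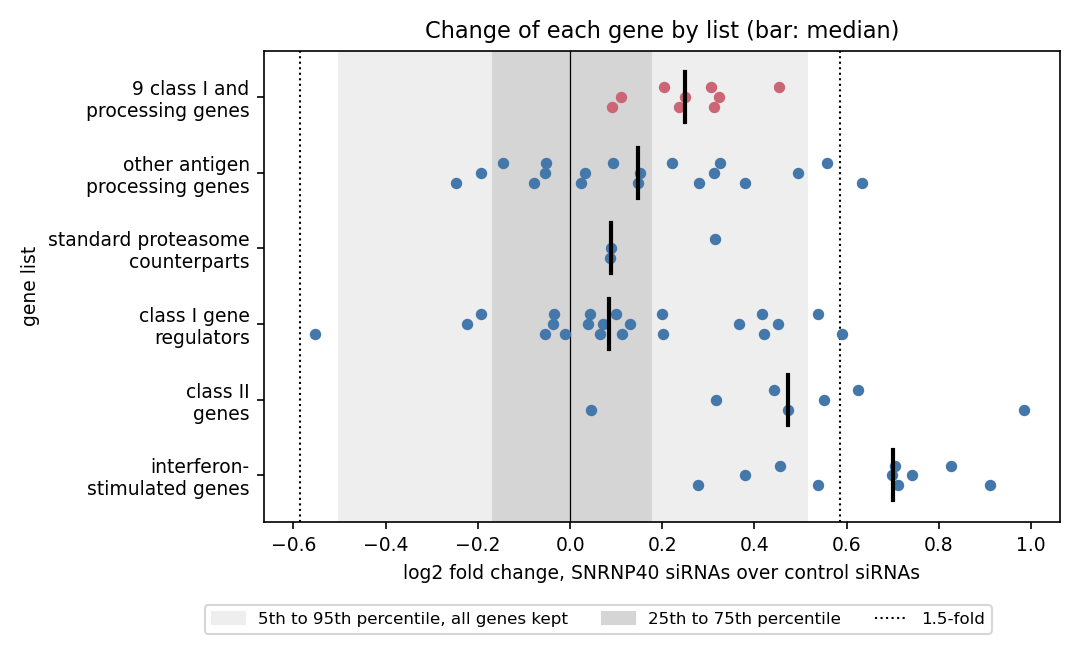
Log2 fold change of each gene of 6 lists with a mean FPKM of at least 1, as SNRNP40 siRNAs over control siRNAs, with the list median as a bar, the spread of all genes as shading and 1.5-fold as dotted lines. The 9 class I and processing genes all lie above 0 and inside 1.5-fold, with a median of 0.25 (HLA-F only through its minor transcripts), while the interferon-stimulated genes have a median of 0.70.

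Of the 9 genes, 8 lie between 29 and 34 Mb of chromosome 6 on hg19. HLA-F starts at 29691117, HLA-E at 30457183, HLA-C at 31236526 and HLA-B at 31321649, while TAP2, PSMB8, TAP1 and PSMB9 lie side by side from 32789610 to 32827628. Another 112 genes of this interval passed the filter, of which 74 were higher at any size, against 50.5% of all genes kept. Their median log2 fold change was 0.10, against 0.0034 for all genes kept. Past 1.5-fold, 10 of the 112 were higher and 3 lower, against 3.77% and 3.25% of all genes kept. The largest log2 fold changes among the higher were those of the read-through transcript TRIM39-RPP21 (1.55), PSORS1C2 (1.00) and HLA-DPA1 (0.98). Their FPKM with control and SNRNP40 siRNAs was low, at 1.12 and 3.27, 0.765 and 1.53, and 1.70 and 3.36. Among the lower they were those of SNORD52 (-0.85), SNORD117 (-0.69) and LOC100507463 (-0.64). These had an FPKM of 8.20 and 4.54, 26.0 and 16.2, and 8.49 and 5.46. The log2 fold changes of the 8 members on chromosome 6 lay between 0.092 and 0.32.

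**Figure D5:**
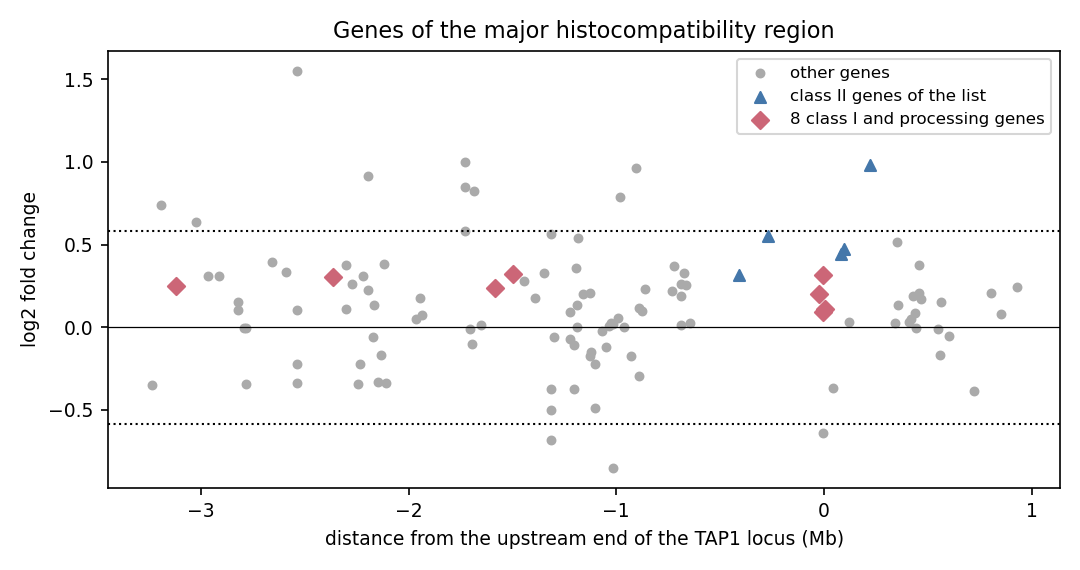
Log2 fold change of the genes of the major histocompatibility region with a mean FPKM of at least 1 against distance from the upstream end of the TAP1 locus in Mb, with 1.5-fold as dotted lines. The 8 class I and processing genes (diamonds) lie between 0.092 and 0.32, the class II genes of the list (triangles) between 0.32 and 0.98, and the other genes spread from -0.85 to 1.55.

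The identity of the cells was checked against marker lists. All 6 markers expected in MDA-MB-231, such as VIM (FPKM 750.1 and 733) and LGALS1 (1058 and 1018), were abundant. CD44 was the highest of them in log2 fold change (0.29) and CAV1, with an FPKM of 285.4 and 197.7, the lowest (-0.53). The luminal markers ESR1, CDH1 and PGR were below 0.1 in both conditions, whereas EPCAM (10.6 and 10.0) and GATA3 (1.32 and 1.18) were detected. Among 8 leukocyte markers the summed FPKM was 49.9 with control siRNAs and 55.0 with SNRNP40 siRNAs, nearly all of it from CD68 and LYZ. PTPRC, the pan-leukocyte antigen, and CD79A were at 0 in both conditions, and the remaining 4 were below 0.5. In bulk RNA a change in the number of cells that express a gene and a change in RNA per cell cannot be told apart.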

How the data were processed

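RNA of 4 libraries was sequenced on an Illumina instrument after removal of ribosomal RNA. Reads were trimmed by the authors with cutadapt 1.2.1, mapped to hg19 with TopHat 2.0.8, assembled and merged with Cufflinks and cuffmerge 2.0.2 and compared with cuffdiff 2.0.2. Each deposited FPKM value is an estimate for 1 transcript in 1 condition, made over 2 libraries, so values per library were not analysed here and depth is unknown. The authors' fold changes, test statistics, p-values and q-values in the table were not used.

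FPKM was summed per gene symbol over rows on the main chromosomes. Log2 fold changes are SNRNP40 over control siRNAs without a pseudocount, for genes with a mean FPKM of at least 1. Since the columns used hold 1 value per condition, from which no test can be computed, counts past a fold of 1.5 were set beside the same counts over all genes. The members and lists were chosen with earlier results of these data known. By rule, all members, SNRNP40, list genes past 1.5-fold or else the extremes of a list, and the 3 largest changes each way in the chromosome 6 interval were named. The letters of the promoter motifs, and the examples so described in the text, were chosen after the sequences or values were seen. Gene models came from GENCODE release 44 lifted to GRCh37, which shares coordinates with hg19, and promoters from RefSeq (GRCh38.p14). Alternatives changed the pseudocount, scaling, filter, fold and transcripts used. Software was pandas 2.3.3, numpy 2.4.6 and biopython 1.88 under Python 3.11.15, and the summing and calling steps were tested on simulated data.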

Additional observations from a re-analysis of the deposited data

How the results depend on the processing

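No paired analysis was possible because each condition is held as 1 column over both of its libraries, and for the same reason no replicate could be left out. Over 54 log2 fold changes of the 9 genes under 6 alternatives (pseudocounts of 1 and 0.1, centring on the median, upper-quartile scaling, the most expressed transcript, and contigs added), 53 moved by less than 0.1 and 1 turned sign, that of HLA-F, which was -0.019 for its most expressed transcript because its higher level rests on minor transcripts. The median of the members stayed between 0.24 and 0.27. With the most expressed transcript 8 members were above 0, and 9 were in the other settings. No member was past 1.5-fold in any of the settings for pseudocount, scaling, transcripts, contigs and filter, and 4 were higher with a fold of 1.2. The median of the other antigen processing genes was 0.063 with the mean FPKM at 5 or more, against 0.15, and 0.033 with it at 10 or more, a setting added after the data were seen.

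The count of all genes past 1.5-fold, 465 higher and 401 lower, was 215 and 221 with a pseudocount of 1, 786 and 628 for the most expressed transcript, 1957 and 1593 without a filter, 139 and 172 with the mean FPKM at 5 or more, and 81 and 115 with it at 10 or more. It was 1967 and 1903 with a fold of 1.2 and 100 and 81 with a fold of 2. The number of genes kept differs between filters by construction, and for the other settings the cause was not tested. Without counts, the limits set by read depth were not assessed.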
